A study of Mus musculus with 4 samples.

Results

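Among the inhibitors of cyclin-dependent kinases, the INK4 genes Cdkn2a, Cdkn2b, Cdkn2c and Cdkn2d and the CIP/KIP genes Cdkn1b and Cdkn1c were followed in mouse mammary tumor cells with and without targeted radiation. They were taken by gene name from the count table and are 6 of its 54532 genes. The third CIP/KIP gene, Cdkn1a, which encodes p21, is not a member and is given for scale. All 6 passed the filter on low counts, which kept 15993 genes.

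The irradiated group held 2 libraries (irradiated 1 and irradiated 2) of tumors given targeted radiation at day 30, and the unirradiated group 2 libraries (unirradiated 1 and unirradiated 2) of tumors left without it. All 4 came from C57BL/6 tumors of the MMTV-PyMT model, in which a promoter active in mammary epithelium drives the polyoma middle T oncogene, and all held cells positive for the mCherry reporter of the Notch ligand gene Dll1. Per the series' design text the tumors grew from injected PyMT-Dll1+ cells (the injection is labelled MFP). After digestion, a sort using antibodies to TER119, CD31 and CD45 enriched tumor cells, and mCherry-positive cells were then taken. The labels give no radiation dose, no age and no word on whether the 2 libraries of each group stem from different animals, so the p-values speak only to how far these libraries spread, and that spread may be technical.

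Progress from G1 into S phase depends on kinases that are switched on by cyclins. INK4 proteins bind CDK4 and CDK6 and keep D-type cyclins from activating them, which leaves the retinoblastoma protein able to hold E2F factors in check. CIP/KIP proteins bind cyclin-CDK complexes more broadly and block CDK2 complexes in particular. In mouse tissues the INK4 locus is best known for silencing by Polycomb complexes in young cells and for activation during senescence and oncogenic stress, while p27, the product of Cdkn1b, is governed to a large part by protein turnover.

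Total counts were 19931303 and 18903631 in the irradiated libraries and 20817997 and 16811888 in the unirradiated ones. The libraries of the irradiated pair lay far apart: the biological coefficient of variation across genes was 39.1% in it, against 5.93% in the unirradiated pair. Luminal epithelial markers were abundant throughout, with 9 genes that summed to 11715 and 9518 CPM (counts scaled to TMM-normalized library size) in the irradiated libraries and 11256 and 10810.4 CPM in the unirradiated ones. Markers of endothelium, leukocytes and red cells, which the sort should remove, and of fibroblasts, which its antibodies do not mark, were higher in irradiated 2 than in irradiated 1. The 12 endothelial markers summed to 70.2 and 1045 CPM in irradiated 1 and 2, against 40.9 and 39.6 CPM in unirradiated 1 and 2, the 9 fibroblast markers to 908 and 6141 CPM with and 718 and 733 CPM without radiation, and the 11 macrophage markers to 358 and 989 CPM with and 356 and 324 CPM without radiation. Both irradiated libraries were above both unirradiated ones in 10 of the 12 endothelial, 6 of the 9 fibroblast and 10 of the 11 macrophage markers. Over all tested genes this share was 20.3%. Cd14, the macrophage marker that overlapped, made up much of that list's sum, at 276 and 325 CPM with and 335 and 304 CPM without radiation. The median log2 difference of the macrophage markers from the unirradiated mean was 2.46 in irradiated 1 and 5.75 in irradiated 2, so these markers were higher in both irradiated libraries. The 8 pericyte markers summed to 220.04 and 423 CPM with radiation and 240.98 and 236 CPM without it. The sums were far smaller for 6 neutrophil markers (9.79 and 87.1 CPM with, 4.76 and 5.96 CPM without radiation), 8 T and NK cell markers (4.24 and 60.2 CPM with, 1.30 and 1.36 CPM without), 6 B and plasma cell markers (16.2 and 63.8 CPM with, 4.72 and 4.31 CPM without) and 5 red cell markers (5.85 and 34.9 CPM with, 2.02 and 4.01 CPM without). They were also small for 5 adipocyte markers (0 and 1.92 CPM with, 0.433 and 0.531 CPM without) and 6 skeletal muscle markers (3.99 and 11.4 CPM with, 2.45 and 1.95 CPM without). Ly6g, Ncr1, Hba-a2, Myh4 and Tnnt3, markers of neutrophils, NK cells, red cells and muscle, were at 0 in both unirradiated libraries. In bulk RNA, fewer cells of a type and less RNA per cell cannot be told apart.

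Cdkn2a and Cdkn2b lie next to each other on chromosome 4, and Cdkn2a has 2 start sites whose transcripts encode unrelated proteins. The transcript of the upstream start encodes p19Arf, which frees p53 by binding Mdm2, and that of the downstream start encodes p16Ink4a, an inhibitor of CDK4 and CDK6. In GENCODE M21 the upstream-start transcript has 895 exon bases and the downstream-start transcript 852, of which 575 are common to both (64.2% and 67.5% of them). The starts are 12461 bases apart. A count per gene sums both transcripts, so the Cdkn2a values below do not say which of them was present. The 250 bases before each RefSeq start of this locus are given to show that Cdkn2a RNA can come from a pair of unlike promoters (RefSeq, GRCm38.p6, minus strand). Capitals mark the GC box GGGCGG or CCGCCC, the CCAAT box CCAAT or ATTGG, the E2F motif TTTCCCGC or TTTGGCGC or their reverse complements GCGGGAAA and GCGCCAAA, and the FOXO motif TGTTTAC or GTAAACA. No marked match overlaps another in these windows.
Cdkn2a, upstream start (p19Arf), chr4:89294620-89294869: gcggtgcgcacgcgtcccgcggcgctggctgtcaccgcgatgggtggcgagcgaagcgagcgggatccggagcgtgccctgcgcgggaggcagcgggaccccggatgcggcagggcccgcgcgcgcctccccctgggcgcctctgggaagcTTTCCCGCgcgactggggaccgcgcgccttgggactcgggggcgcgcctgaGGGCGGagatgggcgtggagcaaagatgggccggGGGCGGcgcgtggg
Cdkn2a, downstream start (p16Ink4a), chr4:89282193-89282442: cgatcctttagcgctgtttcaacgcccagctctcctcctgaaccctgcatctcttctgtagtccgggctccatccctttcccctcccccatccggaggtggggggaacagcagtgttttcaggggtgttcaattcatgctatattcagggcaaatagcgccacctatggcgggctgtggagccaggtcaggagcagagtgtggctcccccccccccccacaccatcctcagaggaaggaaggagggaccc
Cdkn2b (p15Ink4b), chr4:89311033-89311282: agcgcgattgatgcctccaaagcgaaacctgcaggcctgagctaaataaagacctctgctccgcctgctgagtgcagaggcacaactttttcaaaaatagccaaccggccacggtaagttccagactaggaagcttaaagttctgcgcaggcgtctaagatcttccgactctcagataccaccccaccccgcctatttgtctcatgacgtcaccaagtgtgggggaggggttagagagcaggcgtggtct

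The upstream Cdkn2a promoter held 40 CpG dinucleotides, 2 GC boxes and 1 E2F motif and had a GC content of 78.4%, against 7 CpG, 60.0% GC and 0 matches for the downstream one. The Cdkn2b promoter had 12 CpG, 53.6% GC and 0 matches. Over all 32851 promoters compared, the median was 6 CpG and 52.4% GC, 32.7% held a GC box, 33.8% a CCAAT box, 1.3% the E2F motif and 3.2% the FOXO motif. A match describes letters only and does not show a bound site. RefSeq promoters were matched for 5 of the 6 members (all but Cdkn1c). The others were 1 of Cdkn2d with 3 GC boxes and 1 CCAAT box, 1 of Cdkn1b with 1 GC box and 2 CCAAT boxes, and 2 of Cdkn2c, with 3 GC boxes in one and 0 matches in the other.

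**Figure D1:**
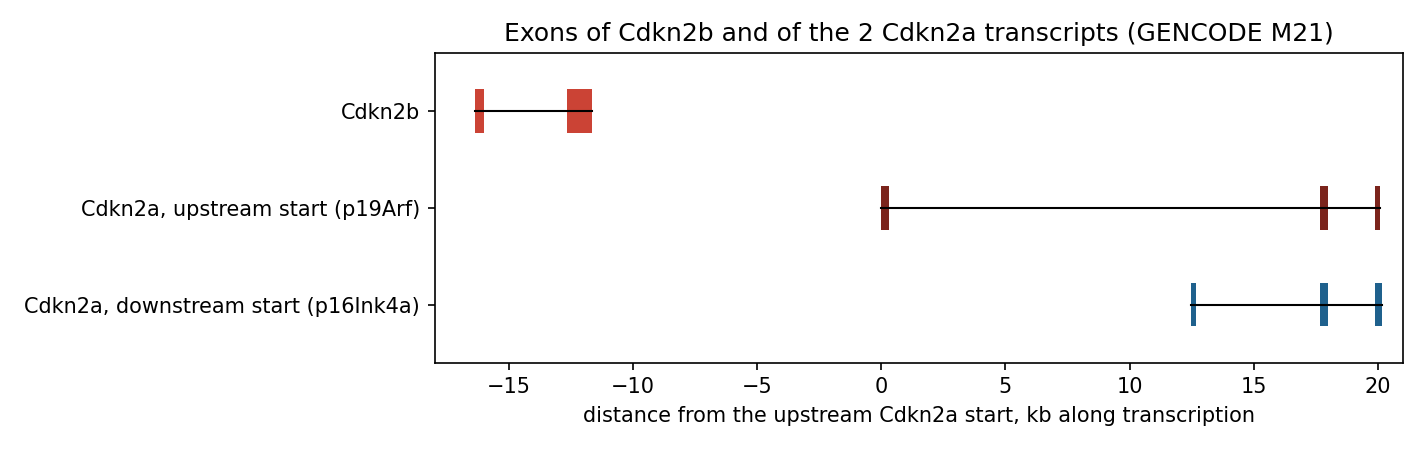
Exons (blocks) and introns (lines) of Cdkn2b and of the 2 Cdkn2a transcripts along the locus. The horizontal axis is the distance from the upstream Cdkn2a start in kb along transcription. The 2 Cdkn2a transcripts differ in their first exon and share bases of the later ones, so most of their exon bases cannot separate them in a count per gene.

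Cdkn2a (ENSMUSG00000044303, mm10 chromosome 4 from 89274471 to 89294653, minus strand) had the highest ratio of irradiated to unirradiated levels of the 6 genes. It was at 15.3 and 11.6 CPM in irradiated 1 and 2, against 8.42 and 7.31 CPM in unirradiated 1 and 2. Both irradiated libraries were above both unirradiated ones, and irradiated 1 was the highest. The fitted difference was 1.71-fold (95% interval 1.11 to 2.65, log2 fold change 0.78, SE 0.25). It did not pass the test over all genes (edgeR quasi-likelihood test, Benjamini-Hochberg adjusted p = 0.496, unadjusted p = 0.0251, rank 806 of 15993 by p). The raw counts behind it were 304 and 218 in the irradiated libraries and 175 and 124 in the unirradiated ones. The summed basal epithelial markers were also highest in irradiated 1: the 4 of them summed to 534 and 247 CPM in the irradiated libraries and 270.5 and 260.3 CPM in the unirradiated ones, with Krt5, a basal keratin gene, at 149 and 66.8 CPM with and 60.8 and 60.98 CPM without radiation. The keratin genes Krt14 and Krt17 were highest in irradiated 1 too, at 228 and 133 CPM, and overlapped between the groups. Trp63, which encodes the basal transcription factor p63, was not, at 23.0 and 17.3 CPM with and 22.7 and 23.4 CPM without radiation. The part of these genes in the Cdkn2a difference was not tested. With irradiated 2 as the single irradiated library, the log2 fold change of Cdkn2a was 0.54.

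Cdkn2b (ENSMUSG00000073802, chromosome 4 from 89306299 to 89311039, minus strand), whose product p15 is best known as a target induced by TGF-beta, was at 14.9 and 13.2 CPM with radiation, against 11.8 and 8.85 CPM without it. The groups did not overlap, but the unirradiated libraries were farther apart than the irradiated ones, by 0.41 against 0.17 on the log2 scale. The log2 fold change was 0.45 (SE 0.23, edgeR adjusted p = 0.647). Per length, the ratio of Cdkn2a to Cdkn2b was 1.22 and 1.04 in the irradiated libraries and 0.847 and 0.980 in the unirradiated ones. The length used for Cdkn2a, 1172 bases, joins the exons of its transcripts, which have 895 and 852 bases. A shorter length would raise this ratio in each library. Mtap, the methylthioadenosine phosphorylase gene and the other measured neighbor within 100 kb of Cdkn2a, was at 22.5 and 35.4 CPM with and 32.05 and 29.4 CPM without radiation, so its irradiated libraries lay on either side of the unirradiated pair.

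Cdkn2d (ENSMUSG00000096472, chromosome 9 from 21288410 to 21291407, minus strand), which encodes p19Ink4d, differed from Cdkn2a in which irradiated library was higher. It was at 13.3 and 17.1 CPM in irradiated 1 and 2, against 11.6 and 10.6 CPM in unirradiated 1 and 2. The groups did not overlap, with a log2 fold change of 0.45 (SE 0.21, edgeR adjusted p = 0.604). The highest value was in irradiated 2, the library with the high markers of endothelium, fibroblasts and macrophages, whose part in it was not tested. With irradiated 1 alone against the unirradiated pair the log2 fold change of Cdkn2d was 0.25.

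Cdkn2c (ENSMUSG00000028551, chromosome 4 from 109660876 to 109667189, minus strand), which encodes p18Ink4c, was the INK4 gene whose groups overlapped. Its levels were 14.5 and 20.4 CPM in irradiated 1 and 2, against 19.1 and 15.9 CPM in unirradiated 1 and 2. Irradiated 1 was the lowest library and irradiated 2 the highest, and the log2 fold change was -0.0064 (SE 0.23, edgeR adjusted p = 0.996). The 95% interval of the fold ran from 0.656 to 1.51, so a difference inside those bounds could not be told from none.

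Cdkn1b (ENSMUSG00000003031, chromosome 6 from 134920401 to 134925513, plus strand) was the most abundant of the 6 genes and was at like levels in both groups. It had 150.1 and 132 CPM in the irradiated libraries and 146 and 142 CPM in the unirradiated ones, which left the groups overlapping. The mean was 141 ± 13.1 CPM with radiation and 144 ± 2.34 CPM without (SD, n = 2 each), and the log2 fold change was -0.0310 (SE 0.12, edgeR adjusted p = 0.965). The 95% interval of the fold ran from 0.795 to 1.20, the narrowest of the 6 genes.

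Cdkn1c (ENSMUSG00000037664, chromosome 7 from 143458339 to 143461050, minus strand), which encodes p57, is an imprinted gene that in mice is expressed mainly from the maternal allele. It was the least abundant member, at 5.95 and 5.65 CPM with radiation, against 3.85 and 4.31 CPM without it, from counts of 118 and 106 against 80 and 73. The groups did not overlap, and the exact 95% counting intervals of single libraries did: 4.93 to 7.13 CPM in irradiated 1 and 3.37 to 5.41 CPM in unirradiated 2. The log2 fold change was 0.51 (SE 0.29, edgeR adjusted p = 0.666). Endothelial and fibroblast marker sums were far higher in irradiated 2 than in irradiated 1, and Cdkn1c was close in these libraries; the part of other cells in its difference was not tested. Exons of the opposite-strand gene Gm44732, which had 0 counts in each library, share 30.7% of the Cdkn1c exon bases, the kit keeps no strand, and the effect of this overlap on the Cdkn1c count was not tested.

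**Figure D2:**
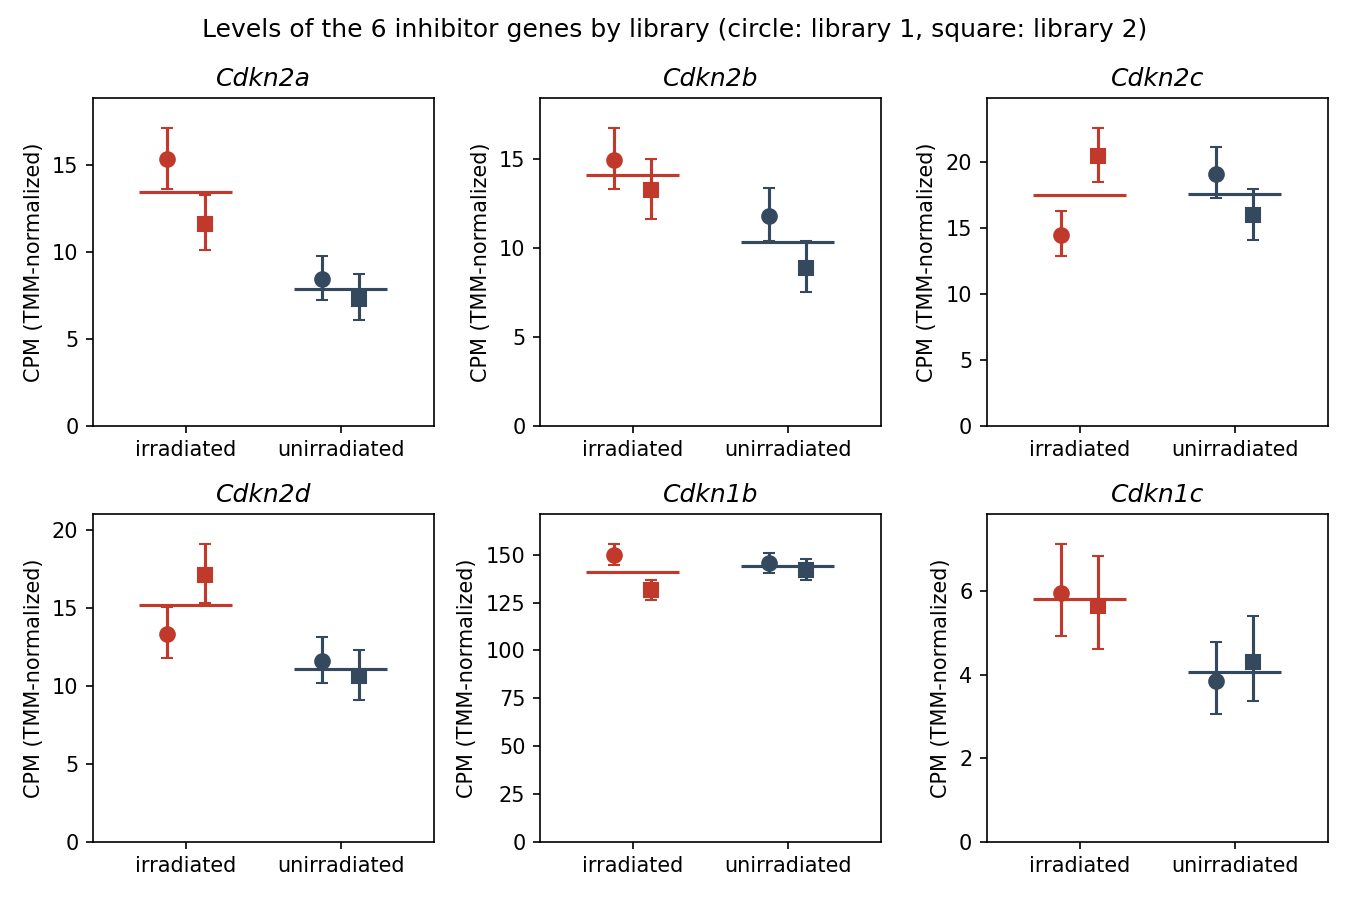
Level of each inhibitor gene in CPM (vertical axis, from 0) in the irradiated and unirradiated libraries. Points are libraries with exact 95% counting intervals and lines are group means. In Cdkn2a, Cdkn2b, Cdkn2d and Cdkn1c both irradiated points lie above both unirradiated ones, and in Cdkn2c and Cdkn1b they overlap.

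Both irradiated libraries thus lay above both unirradiated ones in 4 of the 6 genes (66.7%) and below both in 0. Over all tested genes 20.3% lay above and 20.0% below. The median log2 fold change was 0.45 for the 6 genes and 0.0040 for all tested genes. Separately, the median log2 difference from the unirradiated mean was 0.40 in irradiated 1 and 0.42 in irradiated 2. These counts are descriptions, because the 6 genes were chosen with earlier results of the data known, and because the irradiated pair varied more than the unirradiated one. By the edgeR test 0 of the 6 genes passed an adjusted p of 0.05, and over all genes it called 0% higher and 0% lower (lowest adjusted p 0.489). Before adjustment, 1 member (Cdkn2a) was under 0.05 in edgeR on the higher side and 0 on the lower, against 6.82% of all genes higher and 2.44% lower. DESeq2 called 0 members, with 2.96% of all genes called higher and 0.380% lower, and limma-voom called 0 members. Without irradiated 1 the edgeR fit called 2 members higher, Cdkn2a (log2 fold change 0.54, adjusted p = 0.0276) and Cdkn2d (0.61, adjusted p = 0.00210), against 15.9% of all genes called higher and 7.95% lower. Without irradiated 2 it called Cdkn2a (0.94, adjusted p = 3.28e-06) and Cdkn2b (0.51, adjusted p = 0.0151), against 11.9% of all genes called higher and 13.9% lower. Such fits borrow the small spread of the unirradiated pair for the single irradiated library, and the irradiated pair varied more. For a single gene, the smallest p of an exact permutation test with this design is 0.333.

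**Figure D3:**
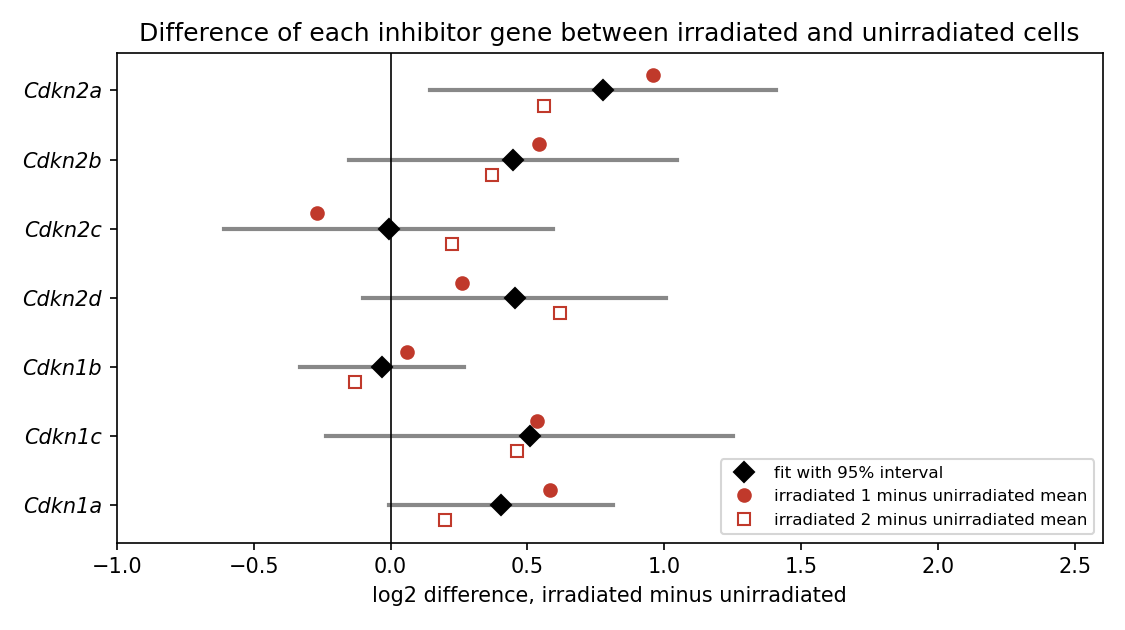
Log2 difference between irradiated and unirradiated cells (horizontal axis) for the 6 inhibitor genes and Cdkn1a. Diamonds are fitted log2 fold changes with 95% intervals, and red symbols are the irradiated libraries each minus the unirradiated mean. The interval of Cdkn2a, 0.14 to 1.41, is the one that leaves out 0 before adjustment over all genes.

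Gene length here joins the exons of all transcripts of a gene, and the order of the INK4 genes and the shares below depend on it. Scaled to this length, Cdkn1b was the highest of the 6 in each library. It was at 30.9 ± 2.88 CPM per kb in irradiated and 31.6 ± 0.514 CPM per kb in unirradiated cells (SD, n = 2 each). Without radiation the INK4 genes were close together, at 7.42 ± 1.497 for Cdkn2b, 7.06 ± 0.441 for Cdkn2d, 6.71 ± 0.668 for Cdkn2a and 6.52 ± 0.837 CPM per kb for Cdkn2c, and neighbors in this order overlapped. With radiation the order was Cdkn2a at 11.5 ± 2.24, Cdkn2b at 10.1 ± 0.870, Cdkn2d at 9.67 ± 1.70 and Cdkn2c at 6.50 ± 1.56 CPM per kb. Of those 4, neighbors overlapped except Cdkn2d and Cdkn2c. Cdkn1c was last in each library, at 2.85 ± 0.105 CPM per kb with and 2.00 ± 0.158 CPM per kb without radiation. Cdkn1a was above all of them, at 59.1 ± 10.97 CPM per kb in irradiated and 44.7 ± 0.691 CPM per kb in unirradiated cells. Among all tested genes per length, Cdkn1b stood at percentiles 91.5 and 89.5 in irradiated 1 and 2 and at 90.8 and 90.7 in unirradiated 1 and 2, and Cdkn2a at 76.7 and 68.9 against 62.0 and 58.3.

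The length-scaled sum of the 4 INK4 genes was 37.7 and 37.9 CPM per kb in the irradiated libraries and 30.1 and 25.3 CPM per kb in the unirradiated ones. That of Cdkn1b and Cdkn1c was 35.9 and 31.7 CPM per kb against 33.9 and 33.4 CPM per kb. INK4 transcripts thus made up 51.2% and 54.5% of the 6-gene sum in the irradiated libraries and 47.1% and 43.1% in the unirradiated ones. This share holds Cdkn2a, Cdkn2b and Cdkn2d, already counted as above, so it is not a separate result, and it was not tested. The INK4 sums of the irradiated libraries were close although their makeup was not: Cdkn2a held 17.8% and 14.3% of the 6-gene sum there and Cdkn2c 7.33% and 10.9%.

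**Figure D4:**
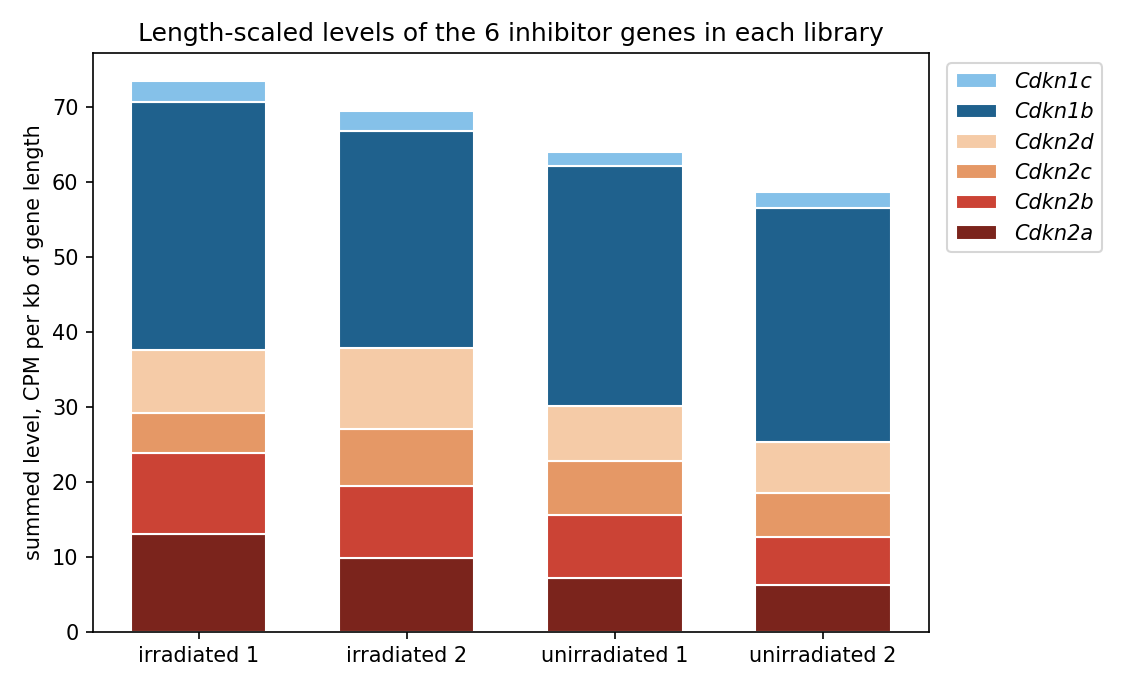
Stacked length-scaled levels of the 6 genes in each library, in CPM per kb of gene length, from 0. INK4 genes are in red and orange shades and CIP/KIP genes in blue. The 6-gene sum was 73.6 and 69.6 CPM per kb in the irradiated libraries and 64.0 and 58.6 CPM per kb in the unirradiated ones, with Cdkn1b the widest band in each.

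The kinases and cyclins that the inhibitors bind did not pass the edgeR test in either direction in any of the 5 genes of the CDK4, CDK6 and D cyclin list or the 7 tested genes of the CDK2, CDK1 and E, A and B cyclin list. In the D cyclin list 0 genes lay above and 0 below. For this list and those that follow, the shares over all tested genes were 20.3% above and 20.0% below. Ccnd2, a D cyclin gene, was at 8.83 and 38.9 CPM in irradiated 1 and 2, against 8.32 and 9.32 CPM in unirradiated 1 and 2, so its difference was in irradiated 2 alone (log2 fold change 1.44, edgeR adjusted p = 0.608). Ccnd1, the D cyclin gene of mammary epithelium, was at 179 and 202 CPM with and 201 and 209 CPM without radiation. Ccne1, a cyclin gene of the G1 to S transition and the 1 gene of the CDK2 and CDK1 list that lay above, was at 8.93 and 8.53 CPM with and 7.27 and 5.66 CPM without radiation. Ccna2, an S phase cyclin gene, was at 14.7 and 24.7 CPM with and 20.8 and 23.4 CPM without radiation.

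Among 13 genes of the pocket proteins, E2F factors and their DP partners, 0 passed in either direction, 7 lay above and 3 below. Rb1, which encodes the retinoblastoma protein, was at 128 and 109 CPM with radiation, against 147 and 152 CPM without it (log2 fold change -0.34, edgeR adjusted p = 0.516). Tfdp1, a DP partner gene, was at 65.4 and 68.1 CPM with and 57.7 and 56.4 CPM without radiation. Of 15 proliferation genes 0 passed, 3 lay above and 0 below, with Pcna, the replication clamp gene, at 124 and 138 CPM with and 122 and 116 CPM without radiation and the mitotic kinase gene Aurkb at 11.6 and 16.05 CPM with and 9.77 and 12.3 CPM without radiation. The median log2 difference of the proliferation genes was -0.10 in irradiated 1 and 0.31 in irradiated 2. Cdkn2c, Cdkn2d and the medians of the kinase and cyclin lists had the same order. So did the medians of the endothelial, fibroblast and macrophage markers, and a link of Cdkn2c or Cdkn2d to any of these lists was not tested.

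Regulators of the inhibitors gave 0 calls in either direction in each list. Of the 16 genes of a list of Polycomb genes with Kdm6b, an opposing demethylase gene, 5 lay above and 2 below. Phc2, a Polycomb repressive complex gene, was at 121 and 125 CPM with radiation, against 98.5 and 91.5 CPM without it (log2 fold change 0.37, edgeR adjusted p = 0.489), and its paralog Phc1 at 30.5 and 27.6 CPM with and 23.2 and 23.4 CPM without radiation. Of 9 genes around Arf and p53, 2 lay above and 0 below. They were Tbx3, a T-box repressor of Arf, at 19.6 and 16.5 CPM with and 7.27 and 7.08 CPM without radiation (log2 fold change 1.33, SE 0.20, edgeR adjusted p = 0.489), and Zbtb7a, another repressor of Arf, at 135 and 138 CPM with and 113 and 117 CPM without radiation. Cdkn2a lay above too, as did 20.3% of all tested genes, and a link of Tbx3 or Zbtb7a to Cdkn2a was not tested. Tbx2, another T-box gene of the list, overlapped between the groups, at 4.44 and 7.68 CPM with and 5.20 and 4.95 CPM without radiation.

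Of 12 genes through which TGF-beta acts on Cdkn2b, 5 lay above and 1 below. The feedback inhibitor gene Smad7 was at 141 and 116 CPM with radiation, against 97.3 and 105 CPM without it (log2 fold change 0.34, edgeR adjusted p = 0.540), and Smad3, which encodes a signal transducer of TGF-beta, at 53.4 and 59.0 CPM with and 48.2 and 49.7 CPM without radiation. Of 9 genes of p27 turnover 0 lay above and 4 below. Skp1a, a subunit gene of the ubiquitin ligase that marks p27, was at 147 and 184 CPM with and 209.8 and 187 CPM without radiation, and Cul4a, a cullin gene, at 74.96 and 78.2 CPM with and 86.4 and 83.3 CPM without radiation. Of 5 genes for transcription factors and chromatin proteins that activate Cdkn1b or Cdkn2c, 1 lay above and 1 below: Foxo1 at 93.3 and 87.7 CPM with and 80.5 and 80.7 CPM without radiation, and Foxo4 at 40.8 and 40.9 CPM with and 48.5 and 48.3 CPM without radiation.

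Imprinted genes were set beside Cdkn1c. Of 18, 15 were tested, 0 passed in either direction, 6 lay above and 1 below, and their median log2 fold change was 0.54 against 0.0040 over all tested genes. Gnas, a G protein subunit gene, was at 88.3 and 108 CPM with radiation, against 64.7 and 63.5 CPM without it (log2 fold change 0.61, SE 0.13, edgeR adjusted p = 0.489), and the adaptor gene Grb10 at 37.3 and 45.3 CPM with and 27.7 and 29.1 CPM without radiation. Within 100 kb of Cdkn1c, in the same imprinted domain, the potassium channel gene Kcnq1 was at 5.85 and 5.22 CPM with and 3.27 and 2.95 CPM without radiation (log2 fold change 0.83, edgeR adjusted p = 0.515). The other 4 measured neighbors, Phlda2, Slc22a18, Nap1l4 and Cars, overlapped between the groups, with Phlda2 at 8.32 and 5.44 CPM with and 9.67 and 7.14 CPM without radiation. The median of the imprinted list was 0.39 in irradiated 1 and 0.67 in irradiated 2, and the part of the other-cell markers, high in irradiated 2, was not tested.

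**Figure D5:**
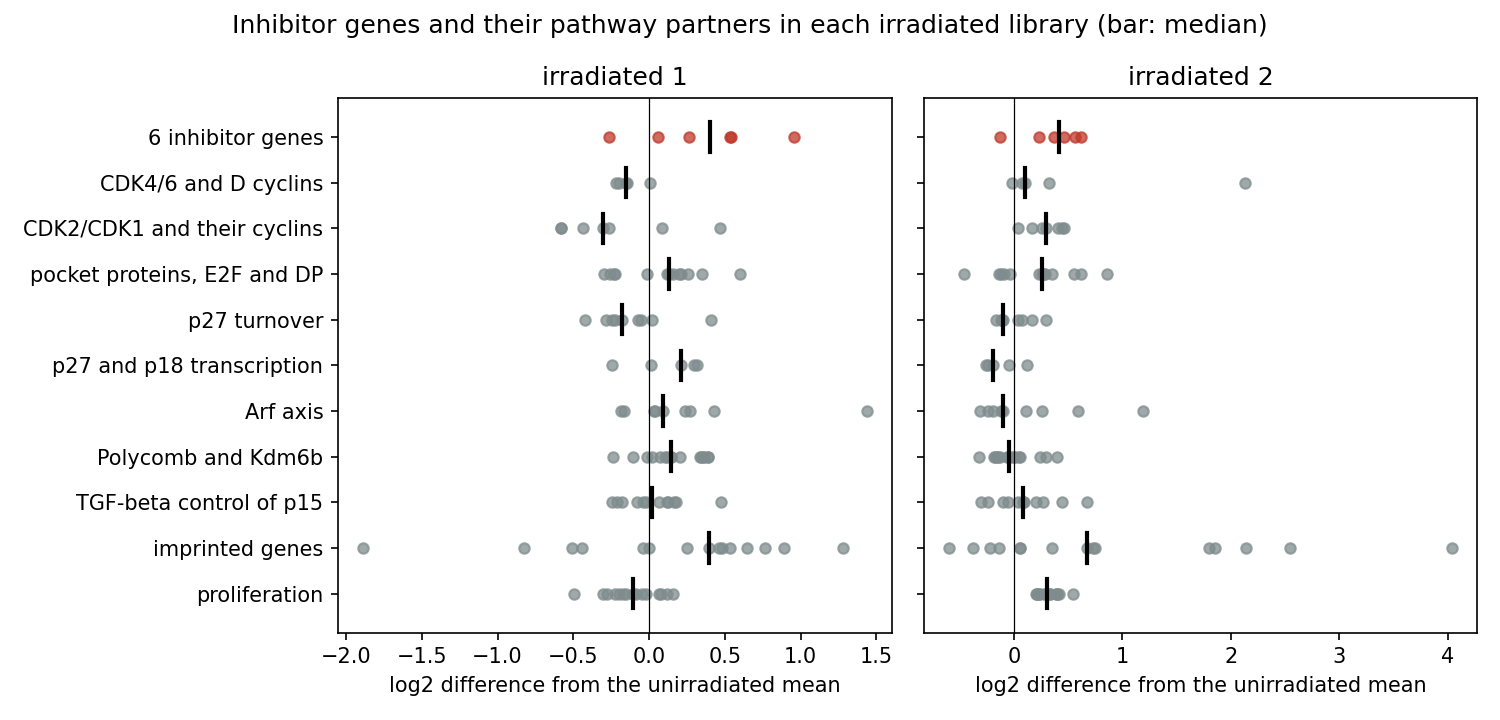
Log2 difference of each irradiated library from the unirradiated mean (horizontal axes, scales differ between panels) for the 6 inhibitor genes (red) and 10 lists of pathway partners (grey), with a bar at each median. The inhibitor medians were 0.40 in irradiated 1 and 0.42 in irradiated 2, while the proliferation median was -0.10 in irradiated 1 and 0.31 in irradiated 2.

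Genes of like pattern were ranked by the root mean square difference of centered log2 CPM over the 4 libraries, among 12306 genes. The closest to Cdkn2a were Kcnh1, Pygm and Mx1 (0.0246 to 0.0425), with 19 genes within 0.1. The closest to Cdkn2b were Cacna1d, Drp2 and Them6 (0.0138 to 0.0380), with 33 within 0.1, and the closest to Cdkn2d were Plekha3, Gna12 and Cebpb (0.0217 to 0.0315), with 136. Rpl41, Cycs and Manf came closest to Cdkn2c (0.0118 to 0.0152), which had 725 genes within 0.1, Rftn2, Zc3h12c and Star to Cdkn1c (0.0228 to 0.0279), with 150, and Rrp1, Cdk5 and Dnajc17 to Cdkn1b (0.00459 to 0.00824), with 2635. No member was among the 3 closest of another. These are descriptions over 4 libraries, with no test.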

How the data were processed

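Poly(A) RNA of 4 libraries was sequenced with a non-directional kit after random priming, per the labels' protocols. Raw gene counts and gene lengths are as the authors deposited them. The submitters' processing notes name mm10, DESeq2, HTSeq 0.6.1 and STAR 2.5; which annotation and counting options were used is not given in the sources used here. Of 54532 gene IDs 54495 were found in GENCODE M21, 98.3% of them at the same position, all 6 members included.

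Counts were tested with edgeR 4.0.16 in R 4.3.3 (filterByExpr with minimum count 10 and total 15, TMM, quasi-likelihood test, two-sided, Benjamini-Hochberg over all 15993 genes, threshold 0.05). Log2 CPM used a prior count of 2. Alternatives were other scalings and filters, leaving out each library, a block on the replicate number, DESeq2 1.42.0 and limma-voom (limma 3.58.1). Of these steps, the edgeR, DESeq2 and limma-voom tests alone were run on simulated counts. The simulation gave both groups the same spread, unlike the real pairs. Counting intervals are exact Poisson intervals and cover counting error only. The members and gene lists were chosen with earlier results of these data known. The text names the members and Cdkn1a, the genes within 100 kb of a member, the 3 genes most like each member and, as no list held a called gene, the 2 of lowest p in every list of pathway partners. Marker lists are given by their sums and by markers at 0. Cd14, Tbx2, Kcnq1ot1 and the basal marker genes were singled out after their values were seen. A neighboring gene is not reported here. Above and below mean that the ranges of the groups do not overlap.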

Additional observations from a re-analysis of the deposited data

How the results depend on the processing

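Cdkn2a, Cdkn2b, Cdkn2d and Cdkn1c kept a positive log2 fold change under all 13 alternatives, from 0.54 to 0.94 for Cdkn2a, 0.24 to 0.66 for Cdkn2b, 0.25 to 0.61 for Cdkn2d and 0.42 to 0.58 for Cdkn1c. Cdkn2c ranged from -0.29 to 0.20 and Cdkn1b from -0.14 to 0.047. Cdkn2c changed sign with CPM above 1 in 2 libraries (0.00054), without irradiated 1 (0.20) and without unirradiated 1 (0.12), and Cdkn1b without irradiated 2 (0.0473). The number of members past the threshold was 0 under each alternative except the fits without an irradiated library, with a range of 0 to 2 higher and 0 lower over the 4 libraries left out. Over all genes those fits called 0 to 2713 higher and 0 to 2355 lower. Without the filter on low counts edgeR called 1338 genes higher and 105 lower, and DESeq2 called 437 and 56, none of them a member; the cause was not tested. With the replicate number as a block 2 genes were called higher and 0 lower. Deviations of same-numbered libraries correlated at -0.15 across 12848 genes. With 2 libraries in each group this cannot show whether the numbers pair them. A crossed pairing, added after seeing the data, called 0 genes. With library size alone, length-scaled levels moved by less than the spread between libraries. The joined M21 exon lengths equal the deposited gene lengths for each member, so using them could not move the levels. Lengths of single transcripts were not tried. At 73 to 118 counts a library, Cdkn1c had the widest interval of the log2 fold change, -0.23 to 1.25.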

Other observations

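The chromosomal neighbors of Cdkn1b and Cdkn2d were measured as well. Within 100 kb of Cdkn1b, Apold1, a gene of endothelial cells, was at 4.49 and 77.9 CPM in irradiated 1 and 2, against 2.21 and 2.42 CPM in unirradiated 1 and 2, which follows the endothelial marker sums (log2 fold change 4.15, edgeR adjusted p = 0.498). The receptor gene Gpr19 was at 9.99 and 4.37 CPM with and 4.91 and 4.25 CPM without radiation, so it was high in irradiated 1 alone. Lockd, a noncoding RNA gene just downstream of Cdkn1b, was at 2.17 and 2.45 CPM with and 3.32 and 2.65 CPM without radiation. Beside Cdkn2d, Kri1, whose nearest end is 441 bases away, was at 32.5 and 22.3 CPM in irradiated 1 and 2, against 22.1 and 21.999 CPM in the unirradiated libraries, so it was highest where Cdkn2d was the lower of the irradiated pair. Ap1m2, an adaptor subunit gene of epithelial cells, was at 74.3 and 79.96 CPM with and 96.3 and 88.7 CPM without radiation. Crebl2 and Ddx47 near Cdkn1b, Keap1, Atg4d, Slc44a2, Pde4a and Gm16754 near Cdkn2d and Faf1 and 9630013D21Rik near Cdkn2c were also measured, as were 2810454H06Rik and Gm44366 near Cdkn1b, the last of which was too low to test. None of the tested neighbors named here passed the edgeR test.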
